A study of Vitis vinifera with 12 samples.

Results

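Red globe young leaves were compared with the young leaves of both other grape cultivars in the series, Bangalore blue and Dilkhush. A row of the leaf table was included where RPKM + 1 in Red globe was 4-fold or more away from each of the others, in the same direction, and where the higher cultivar of each pair reached 10 RPKM. RPKM is a read count scaled to transcript length and to the total of mapped reads. Rows named as transfer RNA were left out. Of 24905 leaf rows, 236 met the rule: 120 were higher in Red globe than in both others and 116 were lower. The same rule chose 172 rows for Bangalore blue leaf and 195 for Dilkhush leaf.

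The series is labelled Vitis vinifera and describes its cultivars as differing in anthocyanin content. Each cultivar's young leaves were represented by 2 libraries, 6 in all. The sources used here do not give plant age beyond the word young, growing conditions or time of sampling, and no treatment or transgene is labelled. The deposited leaf table holds 1 value per cultivar, so no value below has a replicate error, no difference was tested and no p-value is given. The sequencing depth is unknown. Because the rule uses these same leaf values, the differences of the 236 rows are a description of how they were chosen, not a finding about them.

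Young grape leaves are building their photosynthetic apparatus. The chloroplast makes chlorophyll, a branch that opens where magnesium is inserted into protoporphyrin, and carotenoids, which protect the pigments from excess light and also supply the precursors of abscisic acid. Leaves of many grape cultivars also make flavonoids, among them colourless flavonols that absorb ultraviolet light and red anthocyanins. Defence proteins such as the PR10 family accumulate after attack or stress in many plants.

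Median RPKM over the tested rows was 6.10, 6.27 and 6.22, in the order Bangalore blue, Red globe, Dilkhush that is used for every trio of values here. Rows listed at 0 made up 9.38%, 9.40% and 11.3%. Of the leaf markers, the symbols PSBP1, PSBP2 and CHLH matched rows, and PSBP1 was 494 RPKM or more in every leaf column. Of 10 rows of the floral list (AG, AP1, AP3 and MADS genes), 5 were at or above 1 RPKM in some leaf. MADS8 was the highest, at 228, 179.7 and 135 RPKM, with Red globe between the others. Of these 5 rows, 2 (AG and AP1) were above both and 1 (MADS9) below both in Red globe. Here and for every list, above both and below both count any difference in value, however small. AG, a floral organ identity gene, was 10.07, 10.81 and 4.84 RPKM. All 9 berry ripening (GRIP) rows reached 1 RPKM in some leaf, none was among the 236, and 4 were above both and 3 below both in Red globe (5 and 2 after scaling to an equal non-transfer-RNA total). The part of such genes in the results was not tested.

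Red globe was higher than Bangalore blue by the rule's size and floor in 242 rows (0.972% of those tested) and lower in 362 (1.45%). Against Dilkhush, 338 rows were higher (1.36%) and 277 lower (1.11%). The rows that met both comparisons made up 0.482% (higher) and 0.466% (lower) of all rows. Both comparisons share the Red globe column, so a high or low Red globe value enters both.

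**Figure D1:**
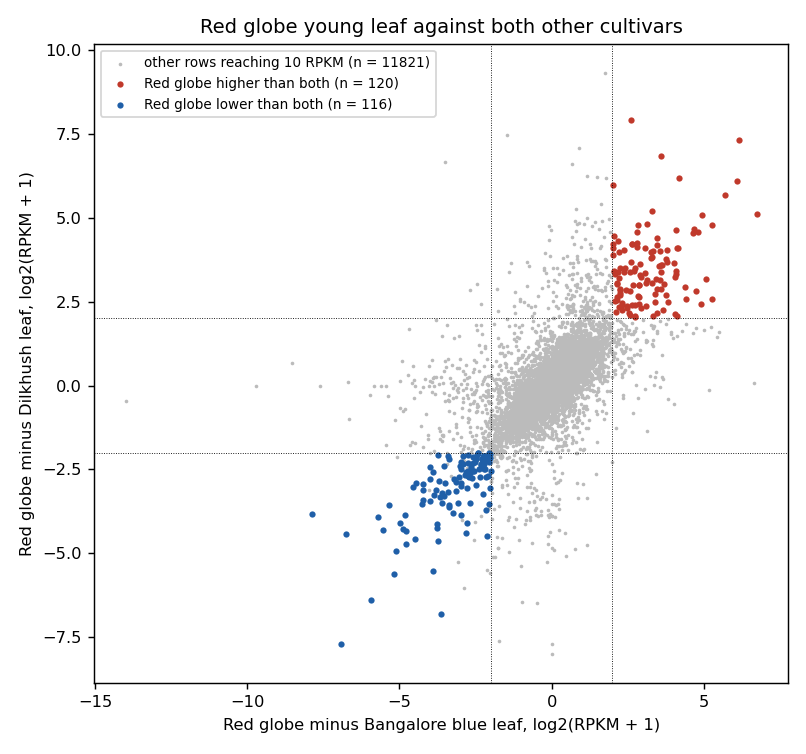
Difference of log2(RPKM + 1) between Red globe and Bangalore blue young leaf (x axis) and between Red globe and Dilkhush young leaf (y axis), 1 point per row with 10 RPKM or more in some leaf; dotted lines mark the 4-fold size. The 120 rows higher than both lie in the upper right corner and the 116 lower than both in the lower left.

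Rows lower in Red globe had medians of 45.7, 4.32 and 40.03 RPKM, and the median of the nearer log2 difference was -2.59. Rows higher in Red globe had medians of 2.60, 29.4 and 1.37 RPKM, with a median nearer difference of 2.68. The nearer difference is that from whichever of the other cultivars was closer to Red globe. It was at least 8-fold in 43 higher and 37 lower rows, at least 16-fold in 13 and 11, and at least 32-fold in 4 and 3. Bangalore blue and Dilkhush lay within 2-fold of each other in 92 of the 116 lower rows (79.3%) and in 77 of the 120 higher rows (64.2%). Over all 12057 rows that reached 10 RPKM in some leaf this share was 89.0%.

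Of the 236 rows, 3 carried a gene name and all 3 were lower in Red globe. CHLH encodes the large subunit of magnesium chelatase, which puts magnesium into protoporphyrin at the first step that belongs to chlorophyll alone. Its leaf values were 597, 138 and 629 RPKM. Bangalore blue and Dilkhush were close to each other, and Red globe was lower (log2 difference -2.11 and -2.18). After scaling to an equal non-transfer-RNA total the nearer difference was -1.97, under the 4-fold size, so CHLH did not meet the rule there. In peel CHLH was 37.2, 29.95 and 48.2 RPKM, where Red globe was again the lowest but by less than the rule's size.

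PR10.2, a member of the PR10 family of small cytosolic defence proteins, was 545, 83.3 and 956 RPKM in leaf (-2.70 and -3.50). In peel the order was turned round, with Red globe highest, at 3523, 5128 and 1322 RPKM. CIPK16, a protein kinase of the family that is switched on by CBL calcium sensors, was 57.1, 1.48 and 19.3 RPKM in leaf (-4.55 and -3.04). A second row of the same name was 50.7, 1.75 and 8.70 RPKM and was outside the rule. It was less than 4-fold below Dilkhush (-1.82), and that pair was also under the 10 RPKM floor. How reads were shared between the CIPK16 rows is not known.

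The other measured rows of the photosynthesis list, PSBP1, NDHM and PSBP2, were also lowest in Red globe leaf. Only CHLH met the rule, and no photosynthesis row met it after scaling to an equal non-transfer-RNA total. PSBP1, a subunit of the oxygen-evolving part of photosystem II, was 2084, 494 and 1758 RPKM. Its difference from Bangalore blue was past 4-fold (-2.07) and that from Dilkhush was not (-1.83). NDHM, a subunit of the chloroplast NDH complex that cycles electrons around photosystem I, was 56.8, 13.6 and 32.01 RPKM. PSBP2 was 74.7, 54.4 and 95.1 RPKM. All 4 measured rows of the photosynthesis list were thus below both other leaves. Of the 18968 leaf rows that reached 1 RPKM in some column, 41.1% were above both and 36.1% below both, the shares beside which each list's counts stand. The list medians, CHLH included, were -2.03 against Bangalore blue and -1.50 against Dilkhush. The medians of the 18968 rows were 0.05 and 0.02. Without CHLH the middle row of the list was NDHM, at -1.99 and -1.18.

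Among carotenoid genes, a list drawn up after the values were seen, 6 of 8 measured rows were below both other leaves and 0 were above both, where the shares of all rows were 36.1% and 41.1%. The list medians were -1.90 and -0.93. ZEP, zeaxanthin epoxidase, which makes violaxanthin, was 137, 40.6 and 122 RPKM (-1.73 and -1.56). LECY1, a lycopene cyclase on the way to lutein, was 35.5, 7.68 and 19.9 RPKM. BCH1, a beta-carotene hydroxylase, was 28.8, 1.49 and 5.94 RPKM, 4-fold or more below Bangalore blue alone. PDS1, phytoene desaturase, an early carotenoid enzyme, was 44.3, 27.7 and 54.3 RPKM, and the cleavage dioxygenase CCD1 was 129.8, 78.2 and 148 RPKM. CCD4b, another cleavage dioxygenase, was 19.9, 0.20 and 1.17 RPKM. The remaining rows, NCED1 and NCED2 of abscisic acid synthesis, put Red globe between the others: NCED1 was 65.3, 12.4 and 1.46 RPKM, over 4-fold from each.

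**Figure D2:**
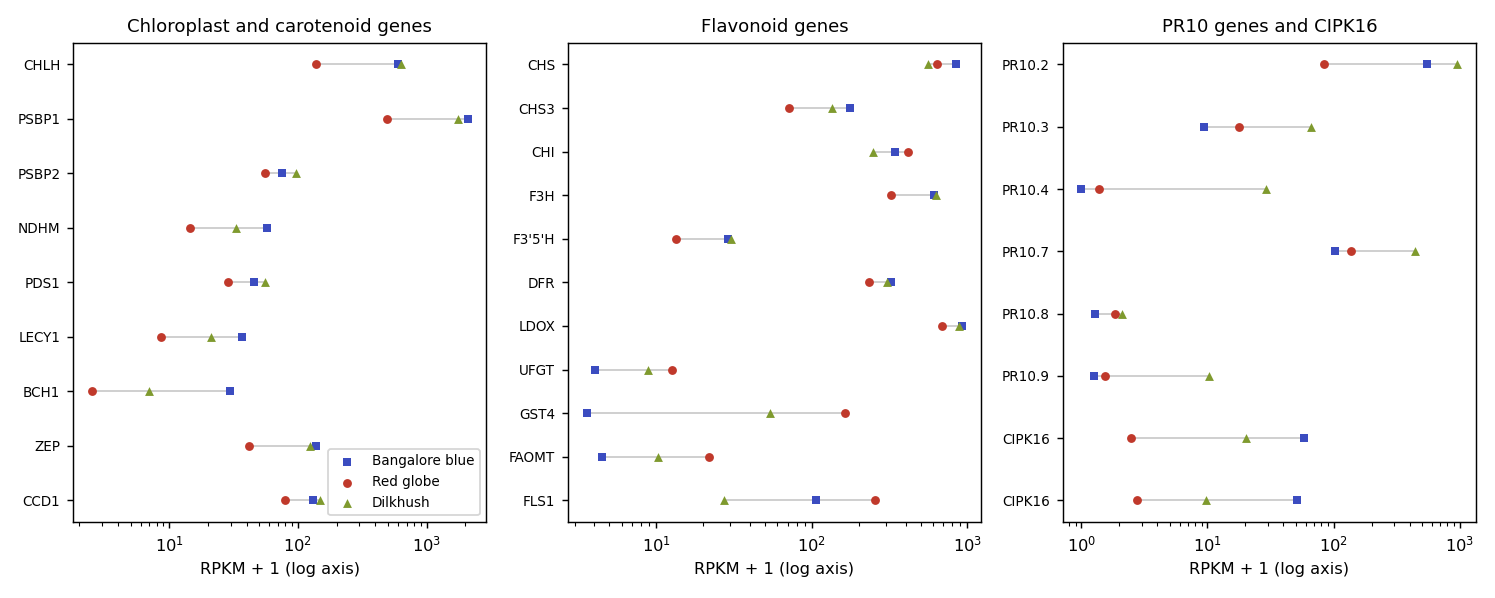
RPKM + 1 on a log axis in the young leaves of Bangalore blue (squares), Red globe (circles) and Dilkhush (triangles), 1 value per cultivar, for named genes in 3 panels. Red globe is the leftmost point for all 9 chloroplast and carotenoid genes drawn, which leave out the carotenoid-list rows NCED1, NCED2 and CCD4b. For NCED1 and NCED2 Red globe lay between the others. Red globe is also leftmost for PR10.2, both CIPK16 rows, CHS3, F3H, F3'5'H, DFR and LDOX. It is rightmost for CHI, UFGT, GST4, FAOMT and FLS1.

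The other PR10 rows did not share the pattern of PR10.2. Of 6 measured rows PR10.2 was the only one below both. PR10.7 was 101, 136 and 444 RPKM and PR10.3 was 8.34, 16.7 and 64.7 RPKM, so that Red globe lay between the others and nearer to Bangalore blue. PR10.4 was 0, 0.37 and 27.9 RPKM. In the wider pathogenesis-related list of 11 measured rows, 1 was above both (2 after scaling to an equal non-transfer-RNA total) and 4 below both. PR10.2, chosen by the rule, was among those below both. CHIT3, a chitinase, was the row above both, at 16.1, 49.4 and 25.1 RPKM. The thaumatin-like TL3, on a row of several gene names, was 126, 44.3 and 103 RPKM.

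Of 27 measured CIPK and CBL rows, 12 were above both other leaves and 11 below both (13 and 8 after scaling to an equal non-transfer-RNA total), against 41.1% and 36.1% of all rows. Only the first CIPK16 row was among the 236. CIPK14 was 132, 44.6 and 93.2 RPKM. CIPK15, under its LOC number in the file, was 56.0, 8.42 and 12.6 RPKM, past 4-fold against Bangalore blue alone. None of the CBL calcium sensor rows was 4-fold from either leaf, and CBL02, the highest, was 63.5, 82.2 and 69.4 RPKM.

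The other 113 lower rows carried no gene name in the file or in the RefSeq gene table used, so their roles are not described. The largest nearer difference was that of LOC104882763, at 348, 1.87 and 593 RPKM (-6.92). LOC104877540 was 59.8, 0 and 83.6 RPKM. LOC100260266 was 558, 14.5 and 765 RPKM (-5.17). In each of these Red globe was far below the others, which lay within 2-fold of each other.

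LOC100244703 was 53.3, 0.56 and 46.3 RPKM, LOC100265935 was 35.4, 0.32 and 33.7, and LOC100263237 was 24.4, 0.13 and 25.8. LOC100250535 was 337, 11.3 and 249.7 RPKM and LOC104880838 was 166, 4.70 and 109. In LOC100266698 the other leaves differed from each other, at 342, 2.14 and 66.5 RPKM. The same held for LOC100244497, at 47.6, 0.035 and 19.7 RPKM. The row shared by LOC100254199 and LOC100259314 was 96.5, 2.06 and 51.2 RPKM. LOC100852799, a name on more than 1 row, was 50.8, 0 and 14.1 RPKM. In all, 4 lower rows were listed at 0 in Red globe, and 3 of them had names repeated on other rows.

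Ordered by level, the lower rows included abundant transcripts. LOC100263871 was 3478, 441 and 3294 RPKM (-2.90). LOC100262354 was 2014, 429 and 2028 RPKM (-2.23). LOC100852851 was 976, 137 and 825, LOC100246457 was 783, 185 and 749.8, and LOC100266170 was 687, 139 and 707. LOC100249137 was 826, 99.4 and 663 RPKM and LOC100252066 was 693, 49.6 and 884. In these rows Bangalore blue and Dilkhush were alike in level, as for CHLH, and Red globe was still at 49.6 RPKM or more. At least 100 RPKM in both other leaves was found for 23 of the 116 lower rows, and at least 100 RPKM in Red globe for 15 of the 120 higher rows.

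None of the 120 higher rows carried a gene name. Of the 238 named rows that reached 10 RPKM in some leaf, 0 were higher by the rule and 3 lower, where the shares of all rows at that level were 0.995% and 0.962%. LOC100855368 had the largest nearer difference, at 3.31, 309 and 0.95 RPKM (6.17). LOC100245584 was 0.025, 69.1 and 0.034 RPKM (6.08), and LOC100241824 was 0, 50.6 and 0 RPKM (5.69). Outside Red globe, LOC100245584 and LOC100241824 were at or near 0, while LOC100855368 was detected at a low level.

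LOC100265128 was 0, 106 and 2.096 RPKM. LOC100259372 was 0.094, 32.5 and 0 RPKM, and LOC104879171 was 0, 24.4 and 0. LOC104881878 appeared on a pair of rows that both met the rule, at 0, 37.3 and 0.40 RPKM and at 0, 37.9 and 5.58 RPKM. LOC100257309 was 0.13, 30.9 and 0.35 RPKM and LOC104882655 was 0.13, 27.02 and 0.20. LOC104882746 was 0, 16.3 and 0 RPKM. Of the 120 higher rows, 11 were listed at 0 in Bangalore blue, 11 in Dilkhush and 5 in both.

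The most abundant higher row was LOC100259041, at 42.04, 320.7 and 25.3 RPKM (2.90). LOC100248414 was 26.3, 264 and 18.03 RPKM (3.28), and LOC100258718 was 12.2, 171 and 20.2 (3.02). LOC100255112 was 16.2, 189 and 41.3, and LOC100258952 was 40.05, 185 and 8.39. LOC104881428 was 39.0, 242 and 0 RPKM, so its distance from the others was unequal. Each of these rows was at 20.2 RPKM or more in at least 1 other cultivar.

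**Figure D3:**
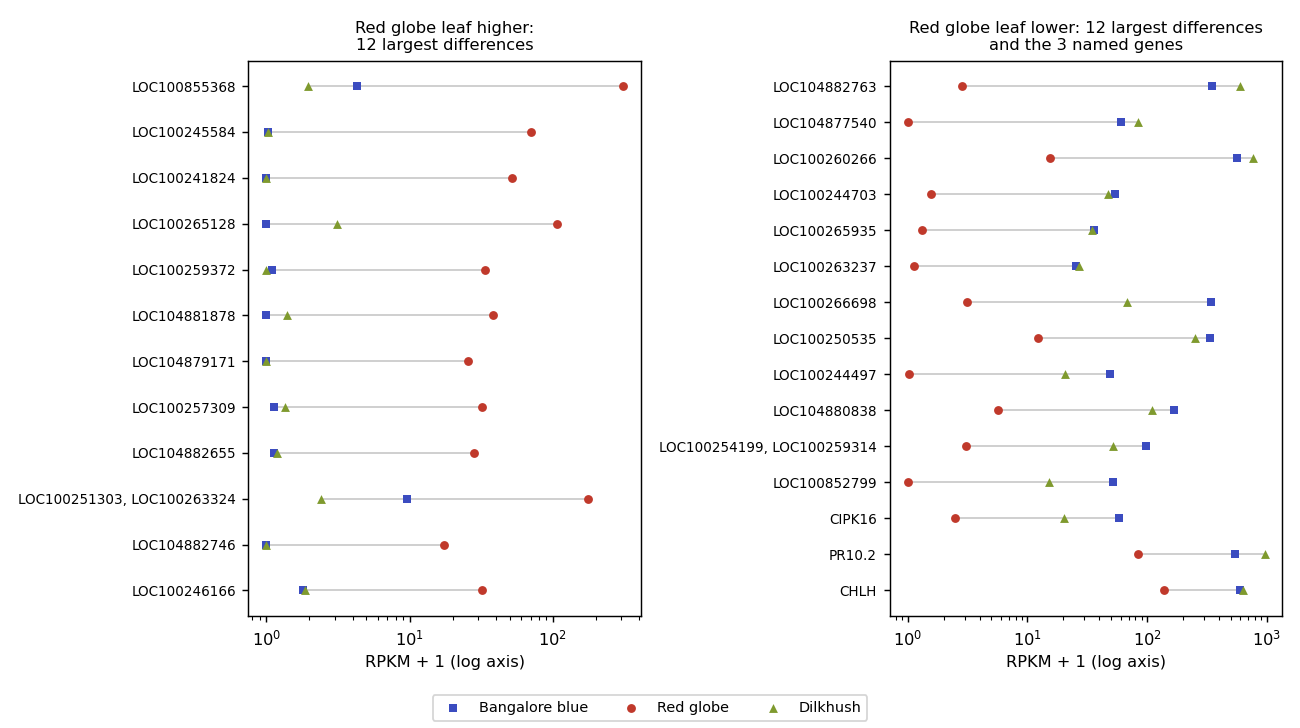
RPKM + 1 on a log axis in the 3 leaf columns for the 12 rows with the largest nearer difference in each direction and for the named genes CIPK16, PR10.2 and CHLH, 1 value per cultivar. Red globe is the rightmost point in every row on the left and the leftmost in every row on the right; points at 1 are values listed at 0.

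Rows near the 4-fold size shared the pattern with smaller differences. Just inside it, LOC100264556 was 35.1, 145 and 1.33 RPKM (2.02), and LOC100266435 was 23.3, 3.49 and 17.0 (-2.001). LOC104878924 (2.02) and LOC100259834 (-2.01) were the other rows nearest inside. Just outside it, LOC100256064 was 5.21, 23.7 and 2.36 RPKM (1.99), and LOC100251455 was 14.9, 2.04 and 11.1 (-1.99). LOC100245192 (1.98) and the row shared by LOC100266984 and LOC104880318 (-1.996) were the other rows nearest outside.

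Anthocyanin genes gave no row to the 236, and their order differed along the pathway. Of 10 measured rows, 3 were above both other leaves and 6 below both, against 41.1% and 36.1% of all rows. GST4, a glutathione S-transferase that carries anthocyanins to the vacuole, was 2.58, 162 and 53.2 RPKM. It was past 4-fold against Bangalore blue (5.51) and not against Dilkhush (1.59). FAOMT, which methylates anthocyanins, was 3.47, 20.96 and 9.32 RPKM (2.30 and 1.09), and UFGT, which attaches glucose to anthocyanidins, was 3.03, 11.6 and 7.87 RPKM. Red globe thus had the highest value for these 3 genes of the late steps of glucosylation, methylation and transport. None was 4-fold above Dilkhush, and the difference of UFGT from Dilkhush was 0.51.

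Enzymes before those steps were mostly lowest in Red globe leaf. F3'5'H, the hydroxylase of the delphinidin branch, was 28.1, 12.5 and 29.3 RPKM, and F3'H, of the cyanidin branch, was 64.7, 25.0 and 48.7 on a row shared with another identifier. A further row under a F3'5'H synonym, LOC100232896, was 1.17, 3.71 and 9.62 RPKM, with Red globe between the others. Another row, shared by LOC100232896 and LOC100853601, was 5.14, 3.40 and 6.85 RPKM, with Red globe lowest. F3H, flavanone hydroxylase, was 608, 322 and 625 RPKM, DFR, the reductase that follows it, was 319.8, 233 and 302, and LDOX, which forms anthocyanidins, was 927, 686 and 881. None of these differences was 4-fold. Of 4 early flavonoid rows, which include F3H, 1 was above both and 2 below both. The chalcone synthase CHS3 was 176, 70.5 and 135 RPKM and the chalcone isomerase CHI was 342, 413 and 247.

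FLS1, flavonol synthase, was 105, 252 and 26.1 RPKM in leaf, past 4-fold against Dilkhush alone (1.26 and 3.22). All 3 flavonol rows were above both, as were 41.1% of all rows, with MYB12, a flavonol regulator, at 6.56, 10.6 and 7.69 RPKM. All 3 proanthocyanidin rows were below both, or 2 after scaling to an equal total. LAR1, a leucoanthocyanidin reductase of tannin synthesis, was 62.7, 15.1 and 28.3 RPKM. Of the 5 activator rows 2 were above both and 3 below both: the leaf regulator MYBA6 was 6.29, 21.5 and 17.4 RPKM, and MYC1, a bHLH partner of MYB activators, was 27.6, 15.1 and 24.7. Of the 4 MYB repressor rows 1 was above both and 2 below both (1 after scaling to an equal total), and MYBC2-L1 was 63.03, 8.78 and 18.4 RPKM.

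Further lists gave no row to the 236 either. Of 8 measured dehydration, cold and abscisic acid rows, 3 were above both and 2 below both. The 2 below both were CCD1 and CCD4b, which the carotenoid list also holds, as it does NCED1 and NCED2. RD22-C, of a dehydration-responsive family, was 181, 297 and 86.8 RPKM, the cold-response factor CBF4 was 16.2, 26.3 and 0.28, and the dehydrin DHN1 was 72.0, 1.43 and 0.46. Of 12 sugar transport rows 6 were above both, or 7 after scaling to an equal total, and 3 below both. The smallest margin above both was that of VVSUC27, at 15.75, 17.13 and 17.10 RPKM. The hexose transporter HT5 was 23.96, 7.92 and 51.4 RPKM and the neutral invertase NIN1 was 49.2, 80.03 and 15.9. Of 11 aquaporin rows 4 were above both and 5 below both: PIP1;3 of the plasma membrane was 1011, 359.8 and 1109 RPKM, while TIP1;2 of the tonoplast was 154, 429.8 and 133.

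THI1-2, of thiamine synthesis, was 46.04, 751 and 279 RPKM in leaf, past 4-fold against Bangalore blue alone (3.998 and 1.42). The other thiamine row, THI1-1, was 316, 352 and 427 RPKM. Of 6 MLO rows, a family tied to powdery mildew susceptibility, 2 were above both and 2 below both (1 after scaling to an equal total), and MLO15 was 32.3, 76.1 and 18.4 RPKM. Of 4 stilbene rows 0 were above both and 1 below both (0 after scaling to an equal total), all under 10 RPKM, with MYB14 at 5.05, 2.65 and 2.15. Of 2 measured phenylpropanoid and lignin rows, 4CL was below both at 112, 70.7 and 116 RPKM and CCOAMT above both at 58.7, 64.6 and 60.4, but not after quantile normalization. AP1, a floral meristem gene, was 0.27, 6.50 and 0.40 RPKM, a difference past 4-fold from both others (2.57 and 2.42) with Red globe under the floor.

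Some of the higher rows were neighbours in the reference gene order. Of 104 higher genes that could be placed in the order of the RefSeq gene table, 23 (22.1%) had another higher gene within 5 gene positions, against 3.24% of the 22163 other placed genes. For lower genes it was 10 of 112 (8.93%), against 4.27%. Placed genes were not matched for level, and neighbouring genes can be close copies that share reads, so this describes the order alone. The 23 higher genes formed 9 groups of 2 to 4 and the 10 lower genes formed 5 pairs.

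One stretch held 2 groups of 3 with 6 genes between them. In the first, the row of LOC100261619 and LOC104880799 was 1.31, 21.6 and 0.59 RPKM, LOC100256520 was 1.29, 26.3 and 0.69, and LOC100266747 was 3.62, 28.4 and 2.65, and these genes were adjacent. In the second, the row of LOC100251303 and LOC100263324 was 8.61, 175 and 1.41 RPKM, LOC100246166 was 0.81, 31.04 and 0.86, and the row of LOC100247836 and LOC100258257 was 0.56, 10.72 and 0.20. Between them LOC100241056 had the same order at 0.036, 6.04 and 0.20 RPKM, under the floor.

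The group of 4 spanned 5 genes. LOC100252386 was 33.5, 144 and 24.3 RPKM, LOC100262652 was 0.89, 15.7 and 0.89, LOC104881856 was 16.8, 84.2 and 6.49, and the row of LOC104881857 and LOC104881858 was 3.58, 34.01 and 2.74. LOC100855128, inside the group, was 33.9, 30.3 and 49.1 RPKM and did not share the pattern. A further group of 3 held LOC104879344 at 0.44, 23.6 and 0 RPKM, LOC104878924 at 3.54, 17.4 and 0.075, and LOC100263000 at 1.12, 21.7 and 1.51. Another pair, LOC100249365 and LOC100252749, was adjacent, at 3.95, 41.8 and 7.26 RPKM and 4.42, 76.4 and 12.7 RPKM.

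**Figure D4:**
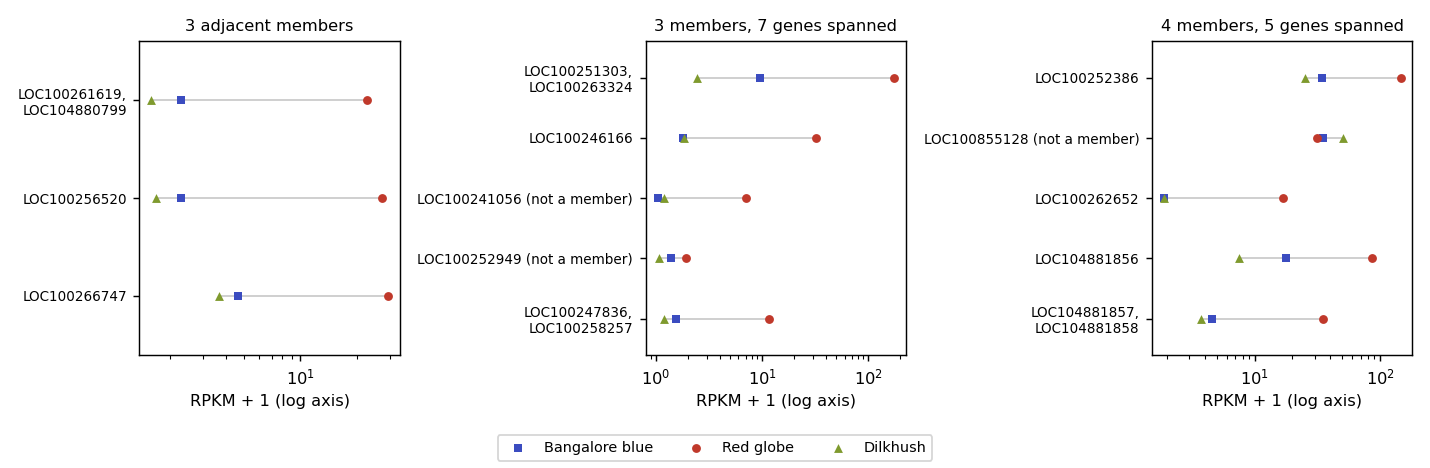
RPKM + 1 on a log axis in the 3 leaf columns for the measured genes of 3 neighbouring groups, listed from top to bottom in the reference gene order, 1 value per cultivar (squares Bangalore blue, circles Red globe, triangles Dilkhush). Red globe is the rightmost point for every gene but LOC100855128.

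Among lower rows, the adjacent LOC100252668 and LOC100249127 were 34.6, 4.07 and 105 RPKM and 21.3, 0.49 and 67.1 RPKM. The abundant LOC100263871 lay 4 positions from LOC100246732, which was 95.7, 19.7 and 88.4 RPKM. Of the genes between that pair, VGT2 was 9.25, 3.81 and 8.18 RPKM. LOC100852851 was paired with LOC100852825, at 58.7, 10.43 and 63.7 RPKM.

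Fruit peel gave values that the rule did not use. The peel table has its own normalization and 1 value per cultivar, so cultivars were compared within it. Transfer RNA rows made up 13.8%, 33.6% and 20.7% of the peel columns' totals, and a larger share there lowers the other values of a column. Of the 236 leaf rows, 213 had a single row of the same name in peel: 105 of the higher and 108 of the lower.

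Red globe had the highest of the 3 peel values in 45 of the 105 higher rows (42.9%), against 29.9% of all 23588 rows shared by the tables. It had the lowest in 56 of the 108 lower rows (51.9%), against 26.9% of shared rows. By the rule's own size and floor, 9 of the 105 (8.57%) were higher than both others in peel too, against 0.373% of shared rows, and 0 were lower. Of the 108 lower rows, 3 (2.78%) were lower than both in peel, against 0.242%, and 0 were higher. Restricted to rows that reached 10 RPKM in a peel column, the shares were 9 of 46 (19.6%) against 0.936%, and 3 of 57 (5.26%) against 0.606%. A row called in peel reaches 10 RPKM by the rule's own floor, those higher in Red globe by their Red globe value. The restriction thus could remove no called row, and these shares are larger by construction. In 27 of the higher and 13 of the lower rows no peel column reached 1 RPKM.

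All 9 rows higher in both tissues had no gene name. LOC100257309 was 0.13, 30.9 and 0.35 RPKM in leaf and 0.57, 18.9 and 0 in peel. LOC104877680 was 0, 15.4 and 0.29 in leaf and 0, 21.4 and 0 in peel, and LOC104879414 was 0.094, 14.1 and 0.17 in leaf and 0.074, 12.9 and 0.075 in peel. LOC104877544 was 0.11, 17.5 and 0.96 in leaf and 0.23, 12.4 and 0.39 in peel. In these rows both other cultivars stayed under 1 RPKM in either tissue.

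The other 5 rows were expressed in some other cultivar too. LOC100245608 was 4.76, 40.1 and 0.49 RPKM in leaf and 1.67, 21.0 and 0.13 in peel. LOC104882052 was 6.32, 44.4 and 1.45 in leaf and 19.96, 148 and 29.4 in peel. LOC100242041 was 9.96, 51.3 and 7.01 in leaf and 13.7, 68.5 and 10.18 in peel, and LOC100251711 was 8.59, 46.4 and 7.68 in leaf and 2.22, 36.5 and 4.18 in peel. The row of LOC100254297 and LOC104882087 was 3.40, 26.3 and 4.17 in leaf and 3.42, 23.96 and 2.94 in peel.

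The 3 rows lower in both tissues also had no name. LOC100264432 was 20.96, 0.65 and 39.9 RPKM in leaf and 21.03, 0.84 and 59.1 in peel. LOC100240884 was 41.5, 7.83 and 82.5 in leaf and 33.9, 3.81 and 62.4 in peel. LOC100244413 was 58.95, 2.74 and 18.9 in leaf and 65.2, 8.77 and 672 in peel, where Dilkhush was far above Bangalore blue.

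**Figure D5:**
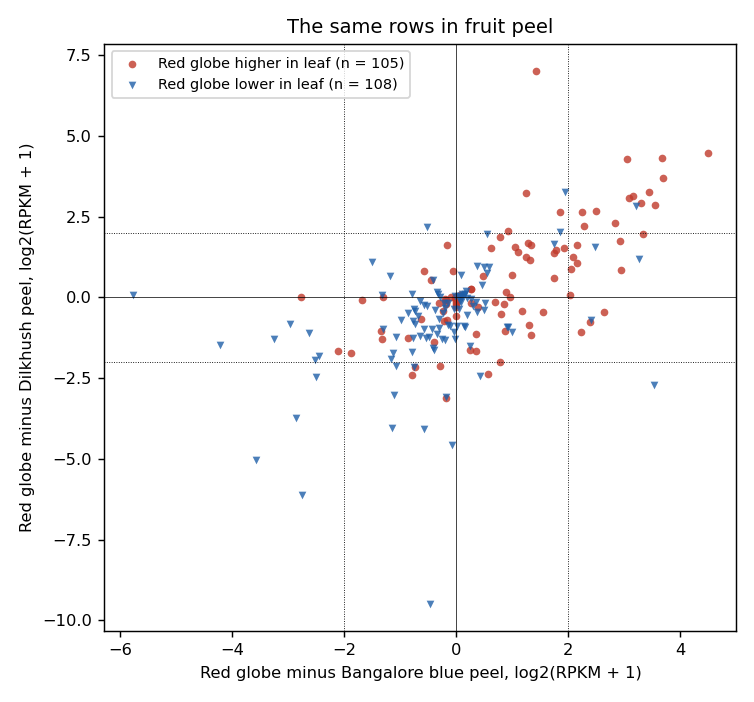
Difference of log2(RPKM + 1) in fruit peel between Red globe and Bangalore blue (x axis) and between Red globe and Dilkhush (y axis) for the 105 rows higher (circles) and 108 rows lower (triangles) in Red globe leaf; dotted lines mark the 4-fold size. Of the points, 9 circles are in the upper right corner with 10 RPKM or more in Red globe peel, and 3 triangles are in the lower left corner with 10 RPKM or more in both other peels.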

How the data were processed

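Young leaves and fruit peels were sequenced from strand-keeping mRNA libraries, per the labels. The deposited values are RPKM in 1 table per tissue, with 1 column per cultivar, per the file headers. TopHat2 2.1.1 and Cufflinks 2.2.1 are named in the submitters' processing notes; the genome build, annotation, sharing of multiply aligned reads and merging of the 2 libraries per group are, in the sources used here, not given. A transcript with a large share of the reads lowers the RPKM of all others.

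From these values differences of log2(RPKM + 1) were computed (Python 3.11.15, pandas 2.3.3, numpy 2.4.6), which understate differences of low genes. The calling step was tested on simulated data. With 1 value per cultivar no test could be run, as the plan for that case provided. Rows of several names (781) or with a repeated name (586) may share reads; 19 of the 120 higher and 7 of the 116 lower rows were such. Of 25116 LOC numbers, 22516 were in a RefSeq gene table (assembly ASM3070453v1, used for names and gene order only), and 328 rows had a name. Named rows follow a rule: all with a symbol, the 12 largest nearer differences and the 8 highest levels each way, and rows called in both tissues; those at the edge, in neighbour groups or in lists are added.

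Gene lists were matched by symbol or synonym: photosynthesis, anthocyanin, early flavonoid, flavonol, proanthocyanidin, activators, MYB repressors, phenylpropanoid and lignin, stilbene, pathogenesis-related, dehydration, sugar transport, floral and GRIP lists, and, added after the values were seen, carotenoid, CIPK and CBL, PR10, aquaporin, thiamine and MLO lists. Lists defined by gene descriptions, seed and root markers among them, are not analysed here. The 236 rows, the rule and the lists were chosen with earlier results of these data known. Sequences are not used here.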

Additional observations from a re-analysis of the deposited data

How the results depend on the processing

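The 120 higher and 116 lower rows, and the counts for single pairs, were recomputed under 10 alternatives; the cause of a change was not tested except where stated. A fold size of 3 gave 224 and 208, and 8 gave 43 and 37. A filter of 5 RPKM in 2 of 3 columns left 40 higher rows, since by construction it removes rows low in both other leaves, and 116 lower. Against Bangalore blue, higher pairs numbered 423 at 3-fold, 101 at 8-fold and 145 under the filter, and lower pairs 556 and 154. Against Dilkhush, lower pairs numbered 436 and 137, and higher pairs 167 at 8-fold. Rows called in both tissues, 9 and 3, became 15 and 13 without the floor, 14 higher at 3-fold, 4 and 1 at 8-fold and 3 higher under the filter. Under the remaining settings (a pseudocount of 0.1, quantile normalization, equal medians, an equal total without transfer RNA, no rows of several or repeated names, and a floor in the highest column only) each of these counts stayed within 1.5 times, as did the leaf counts without a floor, 164 and 154. The floor in the highest column was added after seeing the data, as were the counts in both tissues under the filter, at 8-fold, with equal medians, with the equal total and without rows of several or repeated names.

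Scaling to an equal total gave 142 higher and 98 lower rows and kept 218 of the 236; it moved the median of rows at 10 RPKM by 0.13 against Bangalore blue and 0.11 against Dilkhush. Reading the floor in the highest column gave 136 lower rows. The photosynthesis, carotenoid, anthocyanin and flavonol counts above and below both leaves were alike under all 3 scalings. The 51 rows named by the naming rule, which do not include the edge, neighbour and list rows added to it, were followed one by one. None changed sign, 21 moved by over 0.5 with a pseudocount of 0.1, and none did under the scalings. Under the scalings 2 of the 51 went below 4-fold: CHLH at -1.97 with the equal total, and LOC100246457 at -1.94 with equal medians and -1.90 with the equal total. Of all 236 rows, equal medians kept 228 and quantile normalization 231, beside 218 with the equal total. No paired analysis was possible because the tables hold 1 column per cultivar, which also prevented leaving out a library. Depth is unknown, so values near 0 have no detection limit.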
